A study of Mus musculus with 24 samples.

Results

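Glo1 encodes glyoxalase I, the first enzyme of the glyoxalase pathway, and was followed here over lung RNA of 12 kinds of mice, each with 2 arrays. It is 1 gene of 12393 that the arrays name through a single symbol. Glo1 was chosen by its measured signals in these same arrays, higher in C3 than in B6 and near one or the other progenitor in the recombinant strains, so its own levels are given as a description with no test. It was looked up by its symbol in the platform annotation, which assigns 3 probe sets to it (a probe set is a group of short oligonucleotides that measure 1 transcript). The level of H2-D1, a class I histocompatibility gene on the same chromosome, is given beside it as a marker of the locus.

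The study compared lung gene expression in the inbred progenitors B6 (C57BL/6J) and C3 (C3H/HeJ), their hybrid BXHF1 (F1) and 9 BXH recombinant inbred (RI) strains: BXH2, BXH4, BXH6, BXH7, BXH8, BXH9, BXH10, BXH14 and BXH19. An RI strain descends from such a hybrid by repeated brother-sister mating, and at most loci it is fixed for the allele of one progenitor. All mice were male, aged 8 weeks, untreated and from the Jackson Laboratory. The labels give no transgene or deletion and do not say which progenitor was the mother of the hybrid. No label ties the paired arrays to different animals, and errors and p-values here therefore cover the spread between arrays alone, part or all of which may be technical.

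Glyoxalase I acts on the compound that methylglyoxal, a reactive by-product of glycolysis, forms with glutathione. Hagh, glyoxalase II, then releases D-lactate and returns the glutathione. Methylglyoxal that escapes the pathway modifies proteins and yields advanced glycation end products, whose receptor, Ager, is abundant on type I cells of the lung. In mice, a segment of chromosome 17 that carries Glo1 is known to differ in copy number between inbred strains. Copy number was not measured on these arrays.

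Glo1 is read from the minus strand of chromosome 17. The 250 bases before its transcript start are shown to place the measured transcript, and they are the C57BL/6J reference (RefSeq, GRCm38.p6, chr17:30612660-30612909, minus strand), so they say nothing of the C3 allele. Capitals mark the motifs found, counted without overlap. There was 1 CCAAT box (CCAAT, on the printed strand). The 2 GC boxes (GGGCGG) were both on the opposite strand and are printed as the reverse complement, CCGCCC. A further CCGCCC overlaps the last of them and runs into the lower-case letters. It was neither counted nor marked.

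Glo1: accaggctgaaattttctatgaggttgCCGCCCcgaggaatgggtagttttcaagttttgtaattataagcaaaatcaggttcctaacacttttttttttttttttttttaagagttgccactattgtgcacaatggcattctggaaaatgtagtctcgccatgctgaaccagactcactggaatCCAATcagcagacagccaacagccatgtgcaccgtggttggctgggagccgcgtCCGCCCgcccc

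Both strands were searched. A CCAAT box occurred in 33.8% and a GC box in 32.7% of all 32851 RefSeq windows of this length. The core of the antioxidant response element (TGACNNNGC), held by 10.2% of windows, was not among these letters.

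Glo1 was higher in C3 than in B6 lungs on all 3 probe sets. On the probe set with the highest mean, 1424109_a_at, the B6 arrays gave signals of 1079 and 1413, and the C3 arrays gave 2741 and 2789. The groups did not overlap, and the means of 1246 ± 236 and 2765 ± 33.9 (SD, n = 2 each) differed 2.22-fold. As log2(signal + 16), the scale of all log2 values here, the difference was 1.15 (SE 0.14). Both C3 arrays also lay above both B6 arrays in 19% of the 8280 genes tested in these data, so the lack of overlap by itself does not set Glo1 apart.

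The second probe set, 1424108_at, had 489.9 and 551.8 in B6 against 1351 and 1297 in C3, a 2.54-fold difference of the means (log2 1.32, SE 0.07). The third, 1451240_a_at, had 339.2 and 238.3 in B6 against 849.4 and 766.3 in C3, a 2.80-fold difference (log2 1.45, SE 0.17). All 3 probe sets thus put the C3 level above B6, and they differed in size from 1.15 to 1.45. On 1424109_a_at the difference was 0.96 without B6 replicate 1 and 1.34 without B6 replicate 2.

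The F1 hybrid lay between its progenitors on each probe set. Its signals on 1424109_a_at were 1863 and 2228, a mean of 2045 ± 258 (SD, n = 2). On a scale where 0 is the B6 mean and 1 is the C3 mean, F1 stood at 0.62 in log2 values and at 0.53 in untransformed signals. With 1 array left out, the log2 position ran from 0.51 to 0.73.

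On 1424108_at the F1 arrays had 1112 and 1206, below both C3 arrays but nearer to them, at a log2 position of 0.86 and a position of 0.80 in untransformed signals. On 1451240_a_at they had 588.3 and 627.7, at 0.72 and 0.62. The F1 mean was therefore past the middle toward C3 on all 3 probe sets and both scales, but F1 replicate 1 on 1424109_a_at (1863) was below the midpoint of the untransformed progenitor means. The distance from the midpoint of both progenitors in log2 values was 0.14 (SE 0.12), 0.47 (SE 0.06) and 0.33 (SE 0.15), in the same order of probe sets.

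The 9 RI strains fell on 2 levels of Glo1, near B6 or near C3. On 1424109_a_at, the lower level held BXH9 (901 and 1059), BXH4 (953 and 1041), BXH10 (1086 and 938), BXH8 (994 and 1027) and BXH19 (1162 and 1107). The upper level held BXH14 (2172 and 2338), BXH2 (2140 and 2450), BXH7 (2351 and 2439) and BXH6 (2881 and 2447). The 10 arrays of the first 5 strains ended at 1162 and the 8 arrays of the other 4 began at 2140, so no array lay between them.

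**Figure D1:**
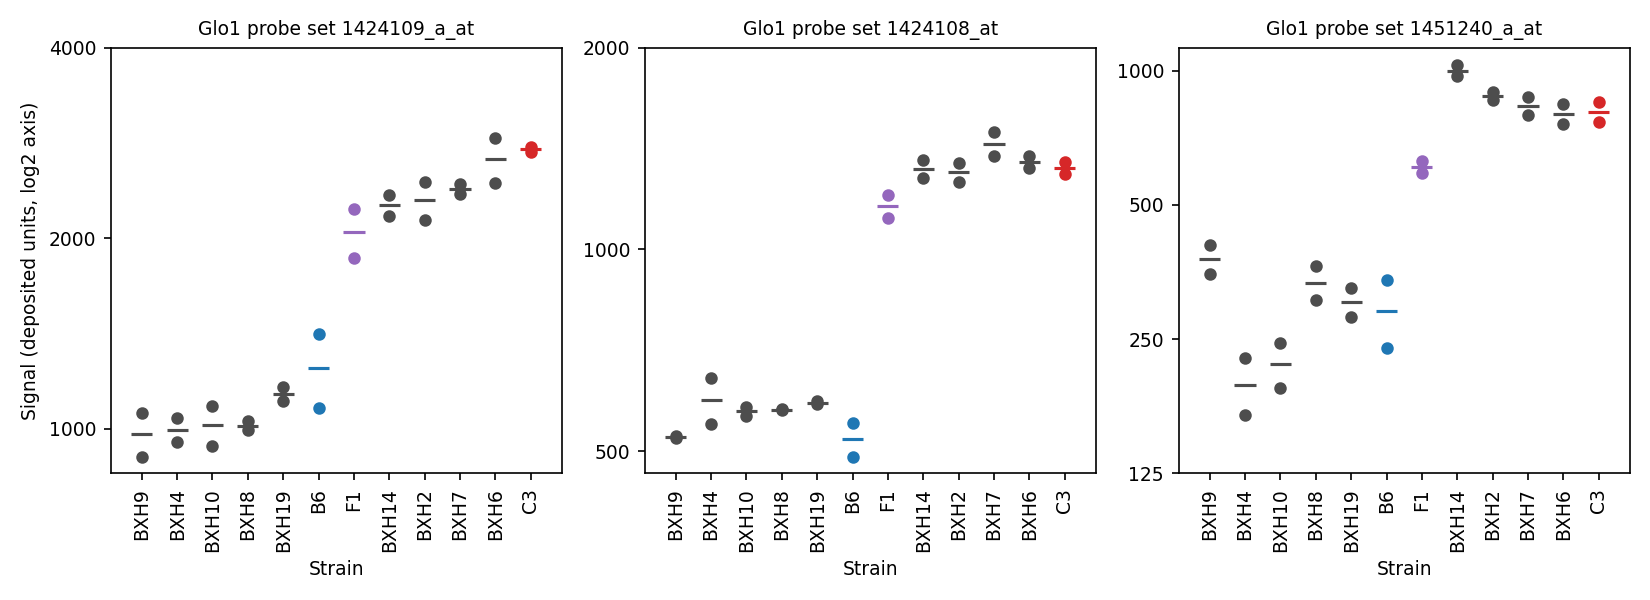
Signals of the 3 Glo1 probe sets (log2 axis, deposited units) in each strain, ordered by the mean of 1424109_a_at; points are the 2 arrays of a strain, short lines their mean, with B6 in blue, C3 in red, F1 in purple and RI strains in grey. BXH14, BXH2, BXH7 and BXH6 sit with C3, the other 5 RI strains sit with B6, and the F1 mean lies between both levels. On 1424109_a_at, F1 replicate 2 (2227.7) lies within the upper level, which begins at 2140.4 in BXH2.

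The widest gap between neighbouring RI strain means was 0.98 in log2 units, 7.26 times the residual SD of 0.14 between arrays of a strain. Among the 8280 tested genes, 81 had a wider gap (median 0.16) and 14 a wider gap relative to their residual SD (median 0.88); Glo1 was chosen for these levels, so its rank is a description. Within the lower level the strain means spanned 0.21 and within the upper level 0.23. Ordered from the lowest mean, the strains were BXH9, BXH4, BXH10, BXH8, BXH19, B6, F1, BXH14, BXH2, BXH7, BXH6 and C3. Only the step from B6 to F1 (0.72) exceeded 2 times the residual SD, so the other neighbours in this order did not differ beyond their spread.

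The other probe sets split the RI strains in the same way. On 1424108_at, which had the smallest residual SD (0.07), the arrays of the lower 5 strains had 523.2 to 643.3 and those of the upper 4 had 1262 to 1498. BXH6, BXH14 and BXH2 were within 0.03 of C3 in log2 values, and BXH7 (1377 and 1498) had the highest mean. In that order B6 to F1 was not the step, since 5 RI strains lay between them: the step above 2 times the residual SD was from BXH4 to F1 (0.94), followed by F1 to BXH2 (0.17).

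On 1451240_a_at the arrays of the lower strains had 168.6 to 406.6 and those of the upper strains 757.6 to 1028. Its lower level was wider, with strain means spanning 0.89 in log2 units against 0.17 on 1424108_at. BXH4 (227 and 168.6) and BXH10 (245.2 and 194.5) had the lowest signals, and BXH9 (406.6 and 349.6) the highest of that level. The order of the lower strains thus differed between probe sets, since BXH9 was the lowest RI strain on both others. Steps above 2 times the residual SD (0.17) on 1451240_a_at were BXH9 to F1 (0.67) and F1 to BXH6 (0.39). The step from BXH10 to B6 (0.36) also exceeded it, so BXH4 and BXH10 lay a step below B6 there.

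H2-D1 marked the same division. On its brightest probe set, 1425545_x_at, B6 had signals of 8824 and 8797, C3 had 1086 and 985.2, and F1 had 5276 and 8145. The 4 RI strains with the upper Glo1 level had H2-D1 means from 912 ± 41.9 in BXH2 to 1295 ± 209 in BXH7, near C3. The other 5 had means from 8842 ± 199 in BXH10 to 12409 ± 1673 in BXH4, near or above B6 (SD, n = 2 each). Of 9 H2-D1 probe sets, the 5 brightest placed the same 4 strains nearer C3, although 1450170_x_at ran the other way and was higher in C3 (3560) than in B6 (61.7). Probe sets of this type can also bind related transcripts, and their signals can depend on the allele.

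**Figure D2:**
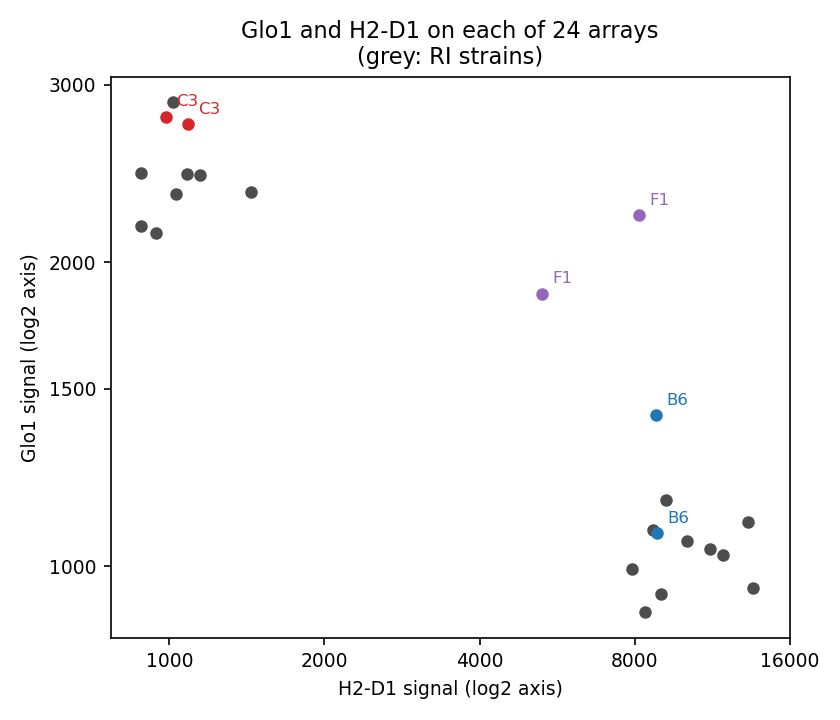
Glo1 signal (probe set 1424109_a_at) against H2-D1 signal (1425545_x_at) on each of the 24 arrays, both on log2 axes, with B6 in blue, C3 in red, F1 in purple and RI strains in grey. RI arrays form 2 clusters, one beside C3 with H2-D1 up to 1443 and Glo1 from 2140, the other beside B6 with H2-D1 from 7908 and Glo1 up to 1162.

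The split of Glo1 was shared by other genes of chromosome 17 that differ between the progenitors. Limma called 138 of 8280 genes (1.67%) between C3 and B6 at an adjusted p below 0.05, 62 higher in C3 (0.749%) and 76 lower (0.918%), and 11 of these besides Glo1 lie on chromosome 17. The fit covered every gene, so the 138 include Glo1 and the 11 include H2-D1. Both were chosen beforehand, so their places in these counts are a description and no support for the shared split. For 4 of the 11, all 9 RI strains were nearer the same progenitor as for Glo1: H2-K1 (C3 minus B6 -2.51, limma's adjusted p = 2.14e-08), H2-D1 (-3.07, given with no test since it was chosen with Glo1), Gabbr1 (1.33, adjusted p = 0.00188) and H2-M3 (-0.91, adjusted p = 0.00427). H2-K1, H2-D1 and H2-M3 are class I histocompatibility genes, and Gabbr1 encodes a GABA receptor subunit. Of the 126 called genes on other chromosomes, 0 matched Glo1 in all 9 strains, and the median match was 5 strains. The H2-M3 call was lost without B6 replicate 1 (adjusted p = 0.0866) or without C3 replicate 1 (adjusted p = 0.0851), and with only the B6 and C3 arrays in the fit (adjusted p = 0.0792).

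Strain by strain, the match broke on each side of Glo1. In the order of RefSeq genes, Srrm2 (a splicing factor) and Decr2 (a peroxisomal enzyme of fatty acid oxidation) lie before Glo1, 305 and 150 annotated genes away. BXH9 stood at the C3 level for both, at positions of 1.04 and 1.02, while its position for Glo1 was -0.29 and for H2-K1 -0.03. The other 8 strains matched Glo1 at both genes, although BXH4 lay at 0.49 for Decr2. Past H2-M3, Rcan2 placed BXH9 (0.67) and BXH10 (0.72) nearer C3 as well, with BXH4 (0.48) and BXH8 (0.49) close to the middle. Farther on, Xdh, 1039 annotated genes from Glo1, again matched Glo1 in 8 strains, with BXH9 (-0.45) and BXH10 (-0.42) on the B6 side. For Xdh, BXH7 (0.40) was nearer B6, and BXH14 (0.55), BXH2 (0.60) and BXH6 (0.55) were close to the middle. At the far end, Ppp1r21 lay nearer B6 in all 9 strains.

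Between these genes the positions were not all clear. Tnxb, an extracellular matrix protein, put BXH14 (0.39) and BXH2 (0.43) slightly nearer B6. The leukocyte gene Lst1 put BXH9 (0.63) and BXH19 (0.51) nearer C3.

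**Figure D3:**
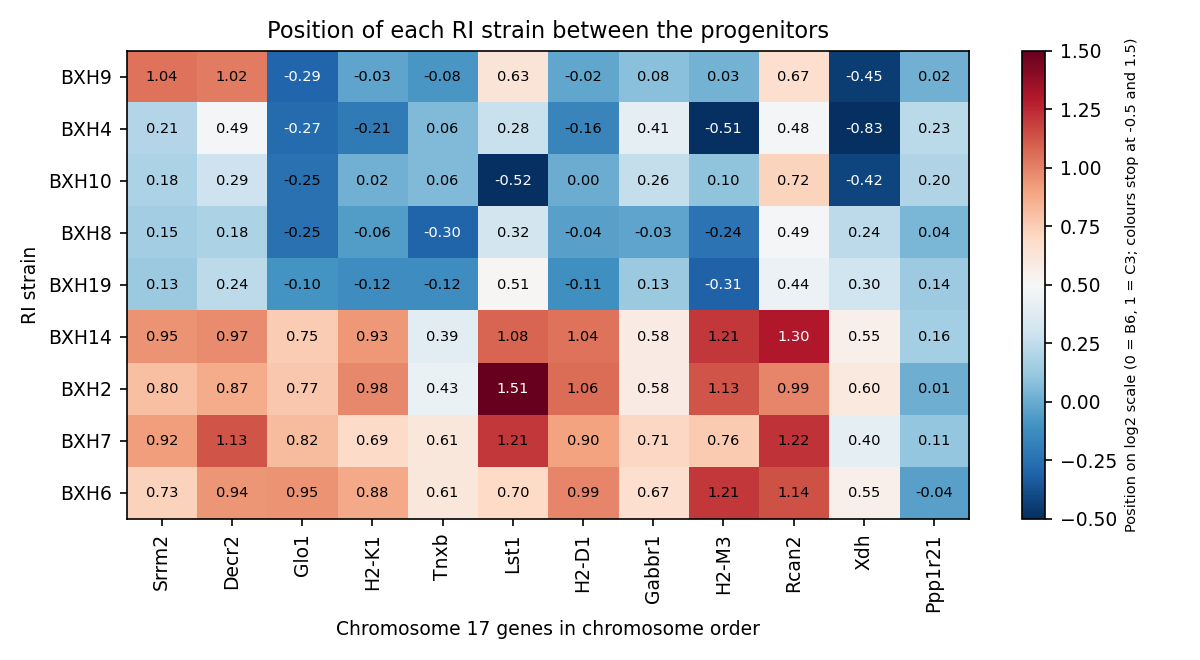
Position of each RI strain between the progenitors (0 is the B6 mean, 1 the C3 mean, on log2 values; colours stop at -0.5 and 1.5) for Glo1 and the 11 other chromosome 17 genes called between C3 and B6, in chromosome order. The strains BXH14, BXH2, BXH7 and BXH6 are above 0.5 and the other 5 below 0.5 from Glo1 to H2-M3 except at Tnxb and Lst1, and BXH9 changes side between Decr2 and Glo1.

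The genes closest to Glo1 are the next in order along the chromosome. Of the 40 annotated genes on each side, 30 had a probe set of their own and 27 were tested. Between C3 and B6, limma called 0 of the 27 at an adjusted p below 0.05 and 1 at an unadjusted p below 0.05. With 1.67% of all genes called, a count of 0 among 27 does not set the neighbours apart from other genes. Their median difference was 0.02, against 0.005 over all tested genes. The lowest was Tff2 at -0.81 and the highest 1700097N02Rik at 0.54 (SE 0.26, adjusted p = 0.544).

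The nearest tested gene on one side is Zfand3, with 0.10 (SE 0.12, limma's adjusted p = 0.949), and its strain means spanned only 0.17 over the RI strains. On the other side the nearest is 1700097N02Rik, a noncoding RNA, with 235.3 and 169.3 in B6 against 245.3 and 360 in C3. The B6 and C3 arrays did not overlap, but the difference did not pass. Over the 12 strains its means had a Pearson r of 0.86 with those of Glo1, given as a description. The RI strains of the upper Glo1 level had means from 244.5 in BXH2 to 328 in BXH14, and the other 5 had means from 180.6 in BXH9 to 217.4 in BXH19. Its strain means thus divided as those of Glo1 did, although single arrays overlapped (203.1 in BXH2, 255.7 in BXH19), and F1 (208.5 and 204.6) lay near B6. Dnah8 (an axonemal dynein chain) and Glp1r (the receptor for glucagon-like peptide 1) follow it, and both lie in or beside the segment of variable copy number. Dnah8 had 395.1 and 302.5 in B6 against 259.6 and 287 in C3, a difference of -0.32 (SE 0.24, adjusted p = 0.817).

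Glp1r had 303.3 and 421.6 in B6 against 377.7 and 152.8 in C3, a difference of -0.54 (SE 0.35, limma's adjusted p = 0.746). Neither gene had a higher mean in C3. Btbd9, the next protein-coding gene before Glo1, has no probe set named for it alone and is not analysed here. Saysd1, which lies on chromosome 14 in the RefSeq table, had a difference of -0.18 (SE 0.16, adjusted p = 0.881).

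**Figure D4:**
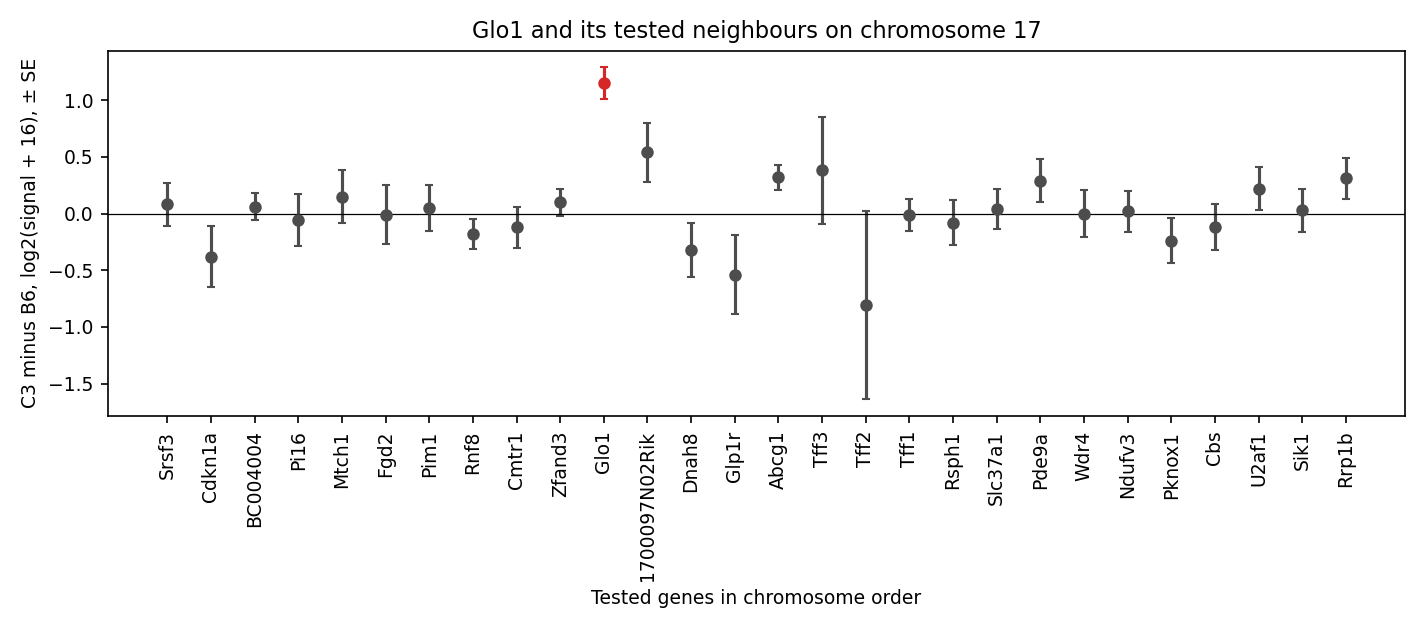
Difference between C3 and B6 in log2(signal + 16) with its SE (2 arrays each) for Glo1, in red, and its 27 tested neighbours on chromosome 17, in chromosome order. Glo1 stands at 1.15, and the neighbours lie between -0.81 and 0.54.

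Between the 9 RI strains, the moderated F test called 772 of 8280 genes (9.32%), and 2 of the 27 neighbours. These were Glp1r (range of strain means 1.79, adjusted p = 0.0196) and Pim1, a serine/threonine kinase (1.07, adjusted p = 0.0244). Glp1r was highest in BXH19 (610 and 540.5) and BXH4 (440.2 and 487.3) and lowest in BXH9 (131.9 and 180.6). Pim1 was highest in BXH4 (730.9 and 590.5) and lowest in BXH2 (261.6 and 352.5). For both genes the strains of the upper Glo1 level did not all lie on one side of the others. For Glp1r, BXH9 (mean 156.2) was the only exception. The strains of the upper level had Glp1r means from 164.8 in BXH14 to 247.3 in BXH6. The remaining strains had means from 296.6 in BXH8 to 575.2 in BXH19. The Glp1r call was lost without BXH4 replicate 2, BXH9 replicate 1 or either BXH19 array (adjusted p from 0.052 to 0.0763), and the Pim1 call without BXH4 replicate 1 (adjusted p = 0.102) or with the mean of probe sets (range 0.69, adjusted p = 0.103). For F1 minus the midpoint of its progenitors, limma called 2 of 8280 genes (0.0242%) and 0 of the 27 neighbours, with 4 at an unadjusted p below 0.05. The 2 called genes include H2-D1 (1.11), which was chosen beforehand, so its place in this count is a description.

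Other enzymes that handle methylglyoxal were measured on the same arrays, and their difference from Glo1 was not tested. Hagh, the second enzyme of the pathway, is also on chromosome 17. It had 945.5 and 780.9 in B6 against 758.9 and 719.6 in C3, a difference of -0.21 (SE 0.17, limma's adjusted p = 0.856). Its other probe sets gave 0.01 and -0.35. Between the RI strains the Hagh means spanned 0.45 (adjusted p = 0.585).

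Of 20 genes of methylglyoxal handling, 13 were tested and 1 was called between C3 and B6, against 1.67% of all genes in either direction and 0.918% lower in C3. The called gene was Akr1e1, an aldo-keto reductase, which had 581.9 and 487 in B6 and 137.4 and 254.2 in C3. It was lower in C3 by a log2 difference of -1.43 (SE 0.23, limma's adjusted p = 0.00167), and with only the B6 and C3 arrays in the fit the call was lost (adjusted p = 0.0628). Akr1e1, on chromosome 13, was also the 1 member called between the RI strains (range 2.13, adjusted p = 1.51e-05), where BXH10 (145 and 90), BXH6 (192.3 and 180.4) and BXH19 (166.4 and 201.6) were low. These low strains came from both Glo1 levels. The median difference of the list was -0.11, against 0.005 over all tested genes. The largest positive difference was Akr1b8 at 0.35 (SE 0.16, adjusted p = 0.521).

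Glutathione, the cofactor of glyoxalase I, is made by Gclc and Gclm, which together form glutamate-cysteine ligase, and by Gss, and is reduced by Gsr. Of 16 genes of glutathione supply, 10 were tested, and limma called 0 between C3 and B6 with 2 at an unadjusted p below 0.05. Gclc had 1185 and 1858 in B6 against 722.9 and 1034 in C3 (log2 -0.77, SE 0.21, adjusted p = 0.0747). It passed without B6 replicate 1 (-1.09, adjusted p = 0.0231) and without C3 replicate 2 (-1.02, adjusted p = 0.0498). The other Gclc probe set gave -0.68. Gsr differed by 0.56 (SE 0.19, adjusted p = 0.216), Gss by 0.13 (SE 0.15, adjusted p = 0.949) and Gclm by 0.02 (SE 0.23, adjusted p = 0.997).

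Between the RI strains, 2 of these 10 genes were called, against 9.32% of all genes. Gclc (range 1.22, limma's adjusted p = 0.00164) was lowest in BXH2 (580.9 and 600.1) and highest in BXH6 (1467 and 1330) and BXH14 (1569 and 1182), and all 3 of these strains have the upper Glo1 level. Strains of the lower Glo1 level came close to both ends, with 709.1 and 625.8 in BXH19 and 1447.7 and 1160.1 in BXH8. Slc3a2, the heavy chain of the cystine and other amino acid transporters, was highest in BXH4 (3643 and 3953; range 0.59, adjusted p = 0.0481). That call was kept in only 3 of the 18 fits with 1 RI array left out, those without either BXH10 array or BXH6 replicate 1, and the others gave an adjusted p from 0.0516 to 0.179. It was also lost with median centring (adjusted p = 0.181), no filter (0.0615), no trend (0.0868) or the replicate block (0.0533).

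Of 16 glycolysis genes, which include the source reactions of methylglyoxal, 13 were tested and limma called 0 between C3 and B6, with 5 at an unadjusted p below 0.05. Tpi1, the isomerase of the triose phosphates from which methylglyoxal forms, differed by 0.04 (SE 0.15, adjusted p = 0.987). Between the RI strains, Pfkm, the muscle phosphofructokinase (range 0.89, adjusted p = 1.26e-04), and Aldoc, an aldolase (1.03, adjusted p = 0.0338), were called, 2 of 13 against 9.32% of all genes. Pfkm was highest in BXH8 (1347 and 1123), BXH9 (1210 and 1262) and BXH2 (1215 and 1047). The same 3 strains had the highest means of the skeletal muscle markers, 11.18 to 11.97 on their 6 arrays against 6.42 to 10.08 on the other RI arrays, and the part of muscle RNA in the Pfkm result was not tested. Aldoc was highest in BXH6 (403.6 and 526.2). Its call was lost in 7 of 18 fits with 1 RI array left out: either array of BXH6, BXH8 or BXH14, or BXH7 replicate 1 (adjusted p from 0.051 to 0.196). It was also lost with no filter on low signals (adjusted p = 0.0595).

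Of 17 receptors for glycation products, their ligands and related genes, 10 were tested and limma called 0 between C3 and B6, with 1 at an unadjusted p below 0.05, the galectin Lgals3 (0.54, SE 0.17, adjusted p = 0.148; without C3 replicate 1, 0.84 and 0.0148). Lgals3 was the 1 of 10 members called between the RI strains, a share near the 9.32% of all genes (range 0.99, adjusted p = 0.0146; without BXH6 replicate 2, 0.0675), highest in BXH6 (3166 and 3792) and lowest in BXH4 (2012 and 1499). Ager, on chromosome 17, had 6727 and 7723 on the B6 arrays, 8266 and 8731 on those of C3, and 7765 and 9763 on those of F1. The RI strains of the upper Glo1 level had Ager means from 8077.5 in BXH14 to 9792.2 in BXH7. The other RI strains had means from 6001.6 in BXH9 to 7568.8 in BXH10. Ager strain means thus divided as those of Glo1 did (Pearson r 0.89 over all strains, a description). Single arrays overlapped, with 7922.4 in BXH14 and 8183.7 in BXH10. Its C3 minus B6 difference was 0.24 (SE 0.17, adjusted p = 0.802) and its range over the RI strains 0.70 (adjusted p = 0.0675). The latter was called with the replicate number as a block (adjusted p = 0.0317) or with quantile normalization (adjusted p = 0.000814), and it was also called without BXH4 replicate 1, BXH7 replicate 1 or BXH8 replicate 2 (adjusted p from 0.0355 to 0.0495). In F1 against the midpoint of the progenitors, limma called 0 members of each of the 4 lists; at an unadjusted p below 0.05 there were 2 members of the methylglyoxal list, 1 of the glycation list and 0 of the other two.

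**Figure D5:**
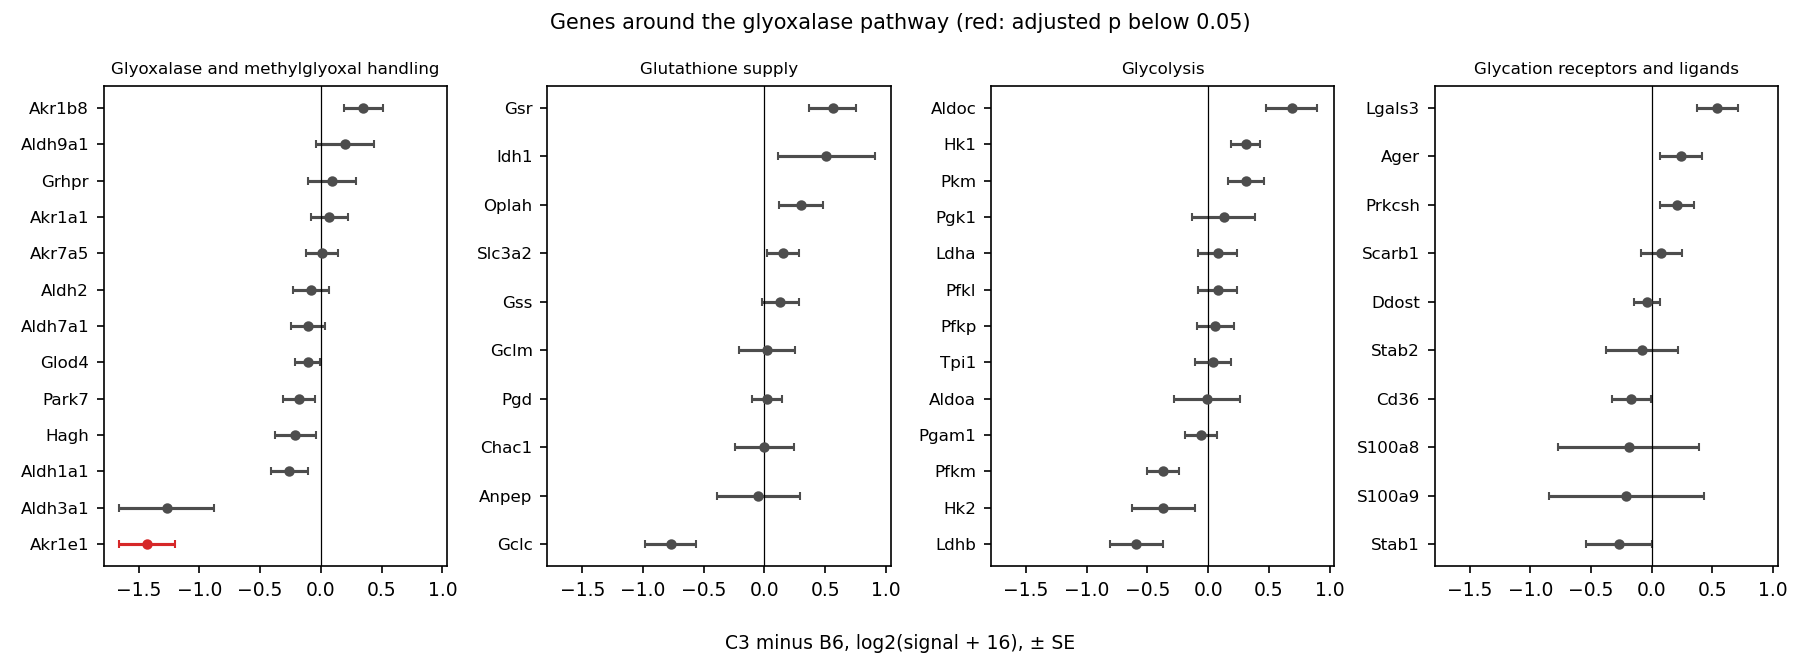
Difference between C3 and B6 in log2(signal + 16) with its SE (2 arrays each) for the tested members of the 4 gene lists; red marks an adjusted p below 0.05. Akr1e1, at -1.43, is the 1 member in red.

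The tested genes whose 12 strain means were most like those of Glo1 were Krt7 (Pearson r 0.96), Sumo3 (0.95), Aqp5 (0.93), Ddx39b (0.90), Bcl7b (0.90) and Icam1 (0.89). Krt7 is a keratin of simple epithelia, Sumo3 a protein modifier, Aqp5 a water channel of type I cells, Ddx39b an RNA helicase encoded in the histocompatibility region, Bcl7b a chromatin remodelling subunit and Icam1 an adhesion molecule. The genes most opposed were H2-M3 (-0.93), H2-K1 (-0.93) and H2-D1 (-0.92). These coefficients are a description over 12 points, and since Glo1 has 2 levels they mainly reflect whether a gene shares that division. Of the 20 genes with the largest coefficients of either sign, 9 (45%) lie on chromosome 17, where 419 of all 8280 tested genes (5.06%) lie. Of the 50 genes with the largest coefficients, 16 (32%) lie there.

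The 6 positively related genes had smaller differences than Glo1. Because they were picked by their strain means, these are given with no test. Krt7 had 2784 and 3195 in B6 against 3776 and 5319 in C3, a log2 difference of 0.59 (SE 0.17). The C3 minus B6 differences of the other 5 ran from 0.19 for Icam1 to 0.45 for Aqp5. Over the RI strains, the range of means was 0.67 for Krt7, 0.66 for Aqp5, 0.63 for Sumo3, 0.59 for Icam1, 0.48 for Ddx39b and 0.45 for Bcl7b, against 1.43 for Glo1.

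Markers of type I epithelium were compared with the Glo1 level. The mean of the 5 tested of 5 markers (Ager, Aqp5, Hopx, Pdpn and Cldn18) was 12.16 and 12.29 on the B6 arrays and 12.35 and 12.54 on the C3 arrays. It ran from 12.42 to 12.71 on the 8 arrays of BXH2, BXH6, BXH7 and BXH14 and from 12.09 to 12.44 on the 10 arrays of the other RI strains, with 12.40 and 12.56 in F1. The ranges of both sets of strains overlapped slightly, with the first lying higher. Of the 5 markers, 0 were called between C3 and B6 or between the RI strains in the main fit. With quantile normalization, the moderated F test between the RI strains called Ager (adjusted p = 0.000814). Aqp5 also passed in that setting, but it was picked by its strain means, so this is a description and no support. The same test called Ager with the replicate block (adjusted p = 0.0317). The part of type I cells in the Glo1 result was not tested. Of the 5 markers, Aqp5 is also among the genes picked above for their likeness to Glo1, and Ager lies on chromosome 17. In bulk tissue, fewer cells of a type and less RNA per cell cannot be told apart.

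The arrays carried lung RNA by their markers: Sftpc, of type II cells, had 9579 to 20160 and Scgb1a1, of club cells, 11223 to 18168. Skeletal muscle markers (9 of 11 tested) varied from 6.42 to 11.97 over the arrays, and squamous epithelium markers (3 of 6 tested) from 5.99 to 11.09. Both lists also differed within a strain. The C3 arrays had muscle means of 6.87 and 10.75, and Glo1 signals of 2741 and 2789. BXH10 had muscle means of 9.99 and 6.72 with Glo1 signals of 1086 and 938, and BXH14 had 10.08 and 6.88 with 2172 and 2338. These strains were picked after their values were seen, and the part of muscle or squamous RNA in the Glo1 levels was not tested. Array medians lay between 239 and 269.6, and 16 of the 24 arrays correlated best with the other array of their own strain.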

How the data were processed

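The authors deposited 1 linear intensity per probe set and array of the Affymetrix Mouse 430A array for 22690 probe sets; which software and scaling made it is not given in the sources used here. On every array, the trimmed mean (2% from each end) was 500.11 to 500.13, so the values were taken as scaled. The scale of analysis was log2(signal + 16), which understates differences of dim genes. Of the probe sets, 20380 had 1 gene symbol, 691 several and 1555 none, and 64 were controls. Entrez identifiers of 20351 were found in RefSeq (GRCm38.p6), used for names and gene order. For a gene with several probe sets the one of highest mean stood for it, and a gene was tested if that mean was in the top 60% (signal 169), leaving 8280 genes. One limma 3.58.1 model (R 4.3.3) with 12 strains as groups, eBayes with a mean-variance trend and 12 residual degrees of freedom gave all tests, with Benjamini-Hochberg adjustment over all genes; it was tested on simulated data. SEs of Glo1 come from the residual SD of each probe set. The number of arrays limits the precision.

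The gene, lists and tests were chosen with earlier results of these data known. The 4 lists and the marker genes were written out by name. Named genes were the 6 most like and the 3 most opposed to Glo1 by Pearson correlation of strain means, fixed pathway and neighbouring genes, and called list members, up to 4 each. The chromosome 17 genes called between C3 and B6 and the strains singled out within a level were added after their values were seen. The alternatives tried were a fit without each array in turn, one on only the arrays compared, the replicate number as a block, no trend, the mean of probe sets, the top 40%, no filter, other offsets (1 or 64), median centring and quantile normalization. Same-numbered arrays did not deviate together: of 66 pairs of strains, 22 had a correlation of deviations above 0.1 (mean 0.009), so the numbers were not taken as pairs.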

Additional observations from a re-analysis of the deposited data

How the results depend on the processing

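With quantile normalization, median centring, offsets of 1 or 64, the replicate block, the other probe sets or their mean, and with any of the 24 arrays left out, 4 RI strains were nearer C3 for Glo1; the choices of filter, trend and arrays in the fit do not enter its strain means. Its C3 minus B6 difference was 1.12 to 1.18 under other scalings and offsets, 0.96 to 1.34 with 1 array left out, 1.32 and 1.45 on the other probe sets and 1.31 as the mean of all 3. Its F1 position moved to 0.86 on 1424108_at and 0.74 for the mean of probe sets, and was 0.51 to 0.73 with 1 array left out. The gap between RI levels was 1.21 for the mean of probe sets and 0.91 to 1.02 with 1 array left out. The replicate block left these Glo1 values in place (1.15, 0.62 and 0.98) and called 129, 3 and 786 genes in the 3 comparisons in place of 138, 2 and 772.

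Genes called between C3 and B6 numbered 74 with only the arrays compared (35 higher, 39 lower), 75 to 113 with 1 array left out (75 without C3 replicate 2, 76 and 78 without B6 replicate 2 or 1, 113 without C3 replicate 1) and 97 with the top 40%. The F1 count was 1 with quantile normalization, 0 with no filter, no trend or only the arrays compared, and 0 to 14 with 1 array left out (14 without C3 replicate 1, 5 without F1 replicate 2, 1 without F1 replicate 1 or B6 replicate 2, 0 without B6 replicate 1 or C3 replicate 2). The RI count was 592 to 821 with 1 array left out. Chromosome 17 neighbours called between C3 and B6 remained 0 in all alternatives.

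Between C3 and B6, the methylglyoxal list had 0 called members with the top 40% or only the arrays compared, and the glutathione, glycolysis and glycation lists 0 to 1 each with 1 array left out. Between RI strains, the methylglyoxal list had 0 with the top 40%; glutathione supply had 1 with median centring, no filter, no trend or the replicate block, and 1 to 2 with 1 array left out; glycolysis had 1 with no filter or the top 40%, 4 with the mean of probe sets, and 1 to 3 with 1 array left out; glycation genes had 2 with quantile normalization or the replicate block, and 0 to 2 with 1 array left out; neighbours had 1 with the top 40% or the mean of probe sets, and 1 to 3 with 1 array left out. Fewer genes are tested with the top 40%, and fewer arrays with only those compared; otherwise the cause was not tested. Of 1512 checks of single genes, 1427 kept their side of the threshold, 71 lost a call, 14 gained one and 0 reversed.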
